A study of Mus musculus with 24 samples.

Results

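For each gene, the change in mouse muscle stem cells over the first day after injury was compared between KO and WT, using 16 of the 24 libraries in the series, 4 in each of 4 groups. The difference of changes, (KO day 1 minus KO day 0) minus (WT day 1 minus WT day 0) on log2(normalised read count + 1), is called the interaction below. It is above 0 where KO cells rose more, or fell less, than WT cells. WT cells carried the genotype label L2A-WT and intact Lamp2a, and KO cells came from L2A-Pax7CreER mice, in which an inducible Cre driven by the Pax7 promoter targets Lamp2a, so that the deletion is aimed at Pax7-expressing cells. Day 0 muscle was uninjured. Day 1 muscle had been injected 1 day earlier with cardiotoxin (50 µL at 10 µM), a toxin from snake venom that destroys myofibres. The labels show no Cre control with an intact Lamp2a, so Cre itself and the loss of Lamp2a cannot be told apart. The agent and timing used to induce Cre are not given in the sources used here. Nor do the labels tie replicates to separate animals, so p-values reflect the spread between these libraries and may cover technical spread alone.

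Muscle stem cells, also called satellite cells, rest in quiescence beside the myofibre and express the transcription factor Pax7. After injury they leave quiescence, enlarge, make ribosomes, turn on Myod1 and enter the cell cycle, while genes that hold quiescence are turned down. LAMP2A is the lysosomal membrane receptor of chaperone-mediated autophagy, in which the chaperone HSC70 (Hspa8) delivers chosen cytosolic proteins to the lysosome 1 molecule at a time.

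Libraries held 11.58 to 22.47 M counts. Libraries of a group correlated less at day 0 (0.837 to 0.871) than at day 1 (0.963 to 0.984), so the interaction carries the larger spread of the uninjured samples. Markers of muscle stem cells were present in all 16 libraries, with summed levels of 14 markers between 2878 and 8105, while 4 of 21 macrophage and monocyte markers reached the level needed for testing. Values below are normalised read counts, given as mean ± SD over 4 libraries or as the 4 library values in order of replicate number, and log2 changes carry the standard error of the model.

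The whole Lamp2 gene (ENSMUSG00000016534), which sums its splice forms and so does not check the deletion of Lamp2a, stood at 509, 870, 628 and 698 in WT and 589, 602, 529 and 608 in KO at day 0. By day 1 it stood at 371, 457, 417 and 415 in WT and 457, 393, 421 and 290 in KO. Lamp2 fell over the day in both genotypes, by 0.68 ± 0.16 in WT and 0.59 ± 0.16 in KO, and its interaction was 0.09 ± 0.22 (limma, adjusted p = 0.855).

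Injury changed about as many genes as it left uncalled in both genotypes, and a minority responded differently in KO. Past the threshold of an adjusted p under 0.05 (limma, Benjamini-Hochberg), 8470 of 14841 genes (57.1%) changed in WT, of which 4513 rose (30.4%) and 3957 fell (26.7%). In KO 7220 changed (48.6%), of which 3886 rose (26.2%) and 3334 fell (22.5%). The interaction passed in 1616 genes (10.9%), 1077 above 0 (7.26%) and 539 below 0 (3.63%). The shares of 7.26% and 3.63% are the background for every count of a gene list below. The median interaction was 0.01 over all genes tested. Of the genes with an interaction, 66.6% were above 0 with limma and 54.8% with DESeq2 (1124 above and 928 below), whose median over all genes lay at −0.10.

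**Figure D1:**
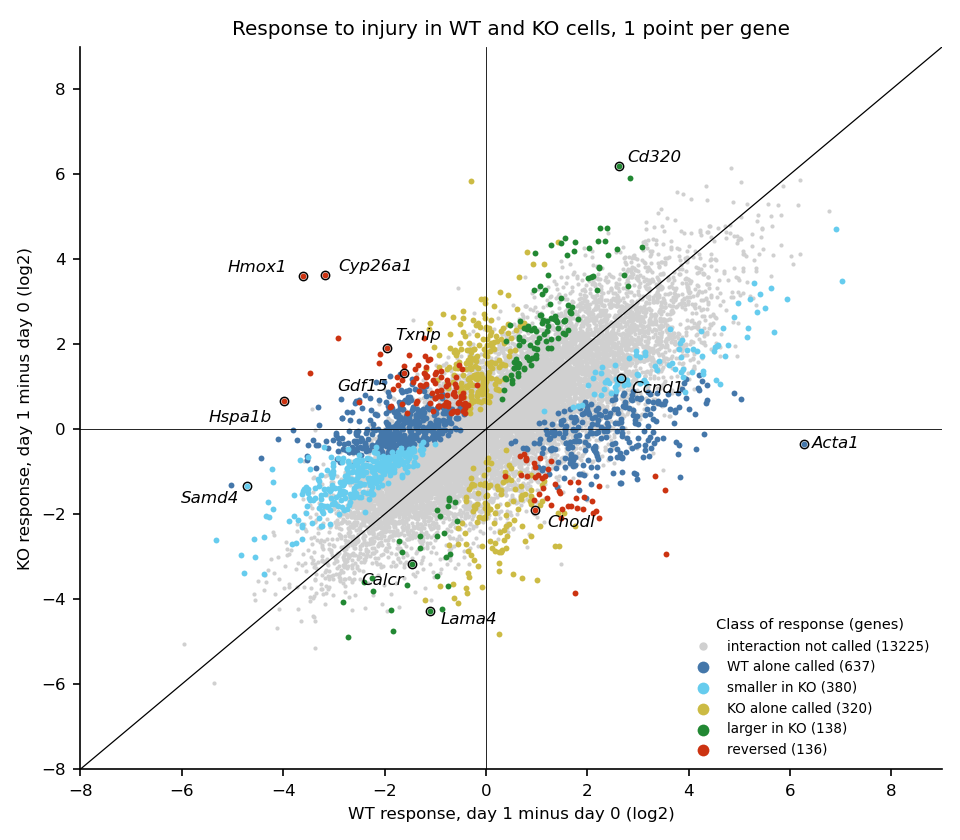
Response to injury in WT (x axis) and KO (y axis), as the log2 difference between day 1 and day 0, with 1 point per gene tested and the line of equal response drawn in black. Coloured points are the genes with an interaction past the threshold, and Hmox1, Cyp26a1 and Txnip lie at the upper left, where the response fell in WT and rose in KO.

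The 1616 genes were divided by what each genotype did on its own. The response was reversed in 136 genes, of which 92 fell in WT and rose in KO and 44 did the opposite. It was larger in KO in 138 genes (110 rose and 28 fell in both) and smaller in KO in 380 (298 fell and 82 rose in both). A response was called in WT alone in 637 genes, 381 of them falling, and in KO alone in 320, of which 193 rose. The remaining 5 had no called response in either genotype. Above 0, the largest classes were falls called in WT alone and falls that were smaller in KO.

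**Figure D2:**
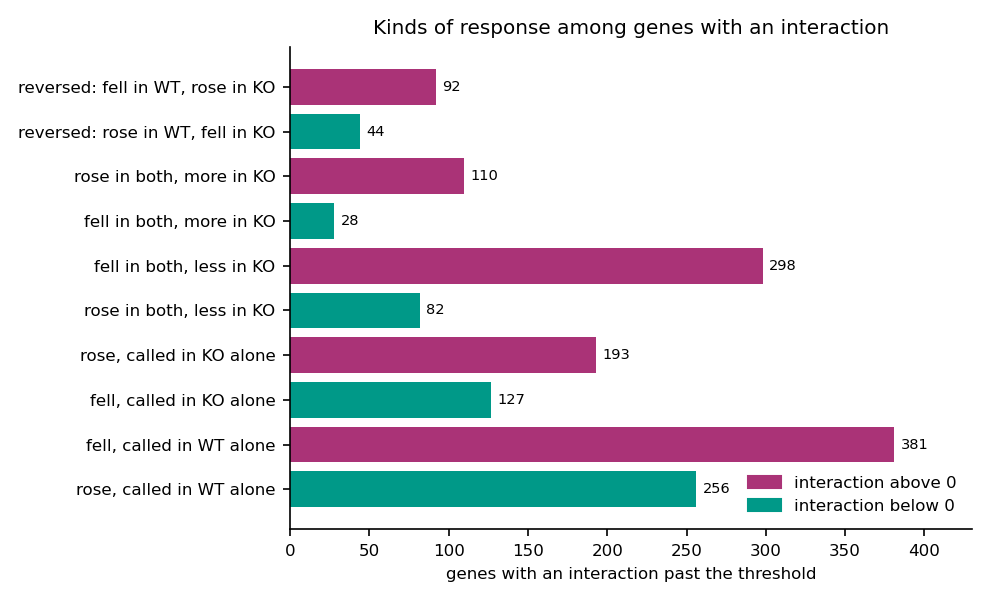
Number of genes (x axis) in each kind of response among genes with an interaction past the threshold, coloured by the sign of the interaction. Falls called in WT alone (381) and falls that were smaller in KO (298) are the 2 longest bars.

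An interaction can come from a genotype difference that is present before injury, after it, or both. Among the 1077 genes above 0 the genotype difference was larger in size at day 1 in 718 (66.7%). Among the 539 genes below 0 it was larger at day 0 in 354. In 108 genes above 0 and 28 below 0 the genotypes differed on both days with opposite signs. Whether a genotype difference on a given day was called depended on how the spread was estimated (1148 genes or 7.74% at day 0 and 1338 or 9.02% at day 1 with the spread of all 4 groups, but 115 and 4246 with the 8 libraries of that day alone), so the levels below are read from the libraries. All 4 KO libraries lay on one side of all 4 WT libraries in 7.69% of genes at day 0 and 29.1% at day 1.

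Hmox1 (ENSMUSG00000005413), the enzyme that breaks down haem and a classical product of oxidative stress, had the largest interaction of the 1616 genes. It stood at 375, 563, 708 and 675 in WT at day 0 and 43.3, 47.8, 50.6 and 39.9 at day 1. In KO it stood at 115, 160, 130 and 117 at day 0 and 1676, 1333, 1733 and 1600 at day 1. No groups overlapped on either day: KO was the lower genotype before injury and the higher after it. Hmox1 changed by −3.61 ± 0.18 in WT and 3.60 ± 0.18 in KO, and its interaction was 7.21 ± 0.25 (adjusted p = 1.07e-11). Of 17 genes of haem breakdown and iron handling, 5 had an interaction above 0 and 0 below (limma, against 7.26% and 3.63% of all genes), with a list median of 0.17 that turned to −0.06 under quantile normalization. The 5 were Hmox1, the biliverdin reductase Blvrb, the iron transporter Slc11a2 and the ferritin chains Fth1 and Ftl1, which store iron. Ftl1 stood at 2676, 2471, 2008 and 2391 in WT and 9323, 8572, 8385 and 9400 in KO at day 1, without overlap, after overlapping levels at day 0 (2491 ± 414 and 2062 ± 262). Ftl1 rose by 2.12 ± 0.12 in KO, its change in WT was −0.05 ± 0.12 and did not pass, and its interaction was 2.17 ± 0.17 (adjusted p = 4.15e-07).

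Cytosolic heat shock proteins are chaperones that bind unfolded proteins. Over the first day they fell somewhat more often than they rose in WT and mostly rose in KO. Of 31 tested, 18 had an interaction above 0 and 1 below, with a median of 1.33. The median change was −0.07 in WT (10 rose, 13 fell) and 0.94 in KO (19 rose, 1 fell). KO started lower: the median genotype difference was −0.54 at day 0 and 0.59 at day 1. At day 0 all KO libraries lay below all WT libraries in 14 of the 31 and above in 0, against 4.19% and 3.50% of all genes. The inducible HSP70 genes Hspa1a and Hspa1b are near-identical neighbours whose reads may be divided between them, so each value is uncertain alone. Hspa1b stood at 2515, 2372, 1941 and 2148 in WT at day 0 and at 119, 129, 221 and 113 at day 1. In KO it stood at 490, 550, 633 and 532 and then at 830, 817, 1312 and 659. KO was below WT in every library at day 0 and above it in every library at day 1. The interaction was 4.66 ± 0.29 for Hspa1b (adjusted p = 3.54e-08) and 4.81 ± 0.42 for Hspa1a (adjusted p = 1.49e-06).

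The promoters of 5 of these stress genes are shown because each had an interaction above 0 and belongs to the chaperone, chaperonin or NRF2 lists, and they were picked with their values known. Their responses were not alike: Hspa1a, Hspa1b and Hsph1 fell in WT and rose in KO, whereas Hspe1 and Srxn1 rose in KO with no called change in WT. They come from RefSeq on GRCm38.p6, which is another build than the mm39 of the counts. A window from 250 bases before to 50 bases after the start site was searched on both strands for the heat shock element GAANNTTC, which reads the same on both strands, and the antioxidant response element TGACNNNGC. Matches are in capitals. For 4 genes the 250 bases before the start site are printed, and for Srxn1 30 bases around its match.
Hspa1a, chr17:34972157-34972406, minus strand: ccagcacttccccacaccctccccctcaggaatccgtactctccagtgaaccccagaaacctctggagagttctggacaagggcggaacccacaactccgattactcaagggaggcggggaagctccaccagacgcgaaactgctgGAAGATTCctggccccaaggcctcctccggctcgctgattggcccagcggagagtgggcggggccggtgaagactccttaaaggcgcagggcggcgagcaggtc
Hspa1b, chr17:34959239-34959488, minus strand: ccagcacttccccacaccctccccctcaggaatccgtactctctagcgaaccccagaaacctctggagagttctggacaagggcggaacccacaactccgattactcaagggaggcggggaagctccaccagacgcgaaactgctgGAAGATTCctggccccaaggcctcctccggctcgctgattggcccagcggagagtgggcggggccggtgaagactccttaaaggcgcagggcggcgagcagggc
Hspe1, chr1:55087898-55088147, plus strand: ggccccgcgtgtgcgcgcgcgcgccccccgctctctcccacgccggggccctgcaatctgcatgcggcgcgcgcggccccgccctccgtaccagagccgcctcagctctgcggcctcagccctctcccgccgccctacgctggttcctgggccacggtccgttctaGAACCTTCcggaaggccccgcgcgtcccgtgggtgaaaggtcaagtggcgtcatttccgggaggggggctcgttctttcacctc
Hsph1, chr5:149636337-149636586, minus strand: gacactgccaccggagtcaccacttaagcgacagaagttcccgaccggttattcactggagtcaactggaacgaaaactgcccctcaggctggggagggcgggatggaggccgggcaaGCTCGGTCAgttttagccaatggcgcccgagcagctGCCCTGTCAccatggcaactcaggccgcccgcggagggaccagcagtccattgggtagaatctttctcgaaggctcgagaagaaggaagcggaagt
Srxn1, chr2:152105542-152105571, plus strand: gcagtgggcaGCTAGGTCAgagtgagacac
The capitals mark a heat shock element in Hspa1a, Hspa1b and Hspe1, and antioxidant response elements in Hsph1 and Srxn1, read on the opposite strand. Hsph1 also has a heat shock element just after its start site, outside the stretch printed. The Hspa1a and Hspa1b stretches differ at 3 of 250 bases. Among 33 chaperone, chaperonin and DNAJ genes with an interaction above 0, 27 had a promoter in the table and 12 of these (44.4%) held GAANNTTC, against 7.86% of all 32851 promoters and 7.29% of the promoters of genes tested. Over all genes with an interaction the share was 8.12% above 0 and 9.36% below. The antioxidant response element was held by 5 of 10 NRF2 list genes with an interaction above 0, against 12.4% of all promoters and 16.8% of those of genes tested. Members of these lists without an interaction were not counted, so these shares cannot tell a trait of the list from one of the interaction. A match is a run of letters and shows no binding, and the shares were not tested.

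Cryab, a small heat shock protein abundant in muscle, was level between genotypes before injury and not after it. It stood at 1490 ± 258 in WT and 1469 ± 187 in KO at day 0. By day 1 it had fallen to 229, 205, 192 and 193 in WT, whereas KO libraries read 2067, 1560, 1621 and 1827. Its interaction was 3.12 ± 0.19 (adjusted p = 3.15e-08), and its change of 0.27 ± 0.13 in KO did not pass. Hsph1, which exchanges nucleotide on HSP70, was 1227, 1451, 1486 and 1721 and then 213, 252, 329 and 240 in WT. In KO Hsph1 was 446, 480, 541 and 611 and then 845, 712, 840 and 843, below WT before injury and above it after. Its interaction was 3.16 ± 0.20. Hsp90aa1, the inducible HSP90, fell by 1.40 ± 0.11 in WT, with a change of 0.17 ± 0.11 in KO that did not pass, and had an interaction of 1.58 ± 0.15 (0.89 under quantile normalization).

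Hspa8, the chaperone that selects substrates for LAMP2A, stood at 5299, 8161, 9363 and 8397 in WT and 5222, 5112, 5756 and 4227 in KO at day 0, with overlap. By day 1 it stood at 4993, 5160, 4781 and 5034 in WT and 9702, 8168, 8757 and 8152 in KO, without overlap. It fell in WT by 0.61 ± 0.14 and rose in KO by 0.78 ± 0.14, an interaction of 1.39 ± 0.19 (adjusted p = 0.000168). Under quantile normalization the interaction of Hspa8 was 0.17 and did not pass (adjusted p = 0.792), and neither did that of Hsp90ab1, the constitutive HSP90 (1.22 ± 0.10, but 0.17 with quantile normalization). The cause of these changes was not tested. Under the same scaling 15 of the 31 chaperones had an interaction above 0, and leaving out any library in turn gave 18 each time.

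Where interactions of HSP70 co-chaperones passed with limma, they were above 0. Of 26 DNAJ co-chaperones, which hand substrates to HSP70, 9 had an interaction above 0 and 0 below (median 0.53). Of all 26 estimates 18 were above 0, and 2 genes were called below 0 with DESeq2 and 1 under quantile normalization. At day 0 all KO libraries lay below all WT libraries in 7 of the 26 and above in 0. Dnajb1 stood at 101, 92.7, 128 and 97.6 in KO at day 0 and 278, 299, 319 and 292 at day 1, while WT went from 298 ± 87.4 to 201 ± 16.9. Its interaction was 2.03 ± 0.25, and that of Dnaja1, which fell in WT and rose in KO, was 1.94 ± 0.15. Of 18 chaperonins, the ring-shaped folding chambers of the cytosol and mitochondria, 6 were above 0 and 0 below (median 0.57, but 0.04 with 2 above 0 under quantile normalization). At day 0 all KO libraries lay below all WT libraries in 8 of the 18 and above in 1. The median genotype difference of the chaperonins was −0.36 at day 0 and 0.11 at day 1. Hspe1, the lid of the mitochondrial chamber, was 210, 161, 196 and 244 in KO at day 0, less than in any WT library (576 ± 72.9). At day 1 the genotypes overlapped (452 ± 70.6 in WT and 631 ± 87.3 in KO), and the interaction was 1.99 ± 0.22.

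**Figure D3:**
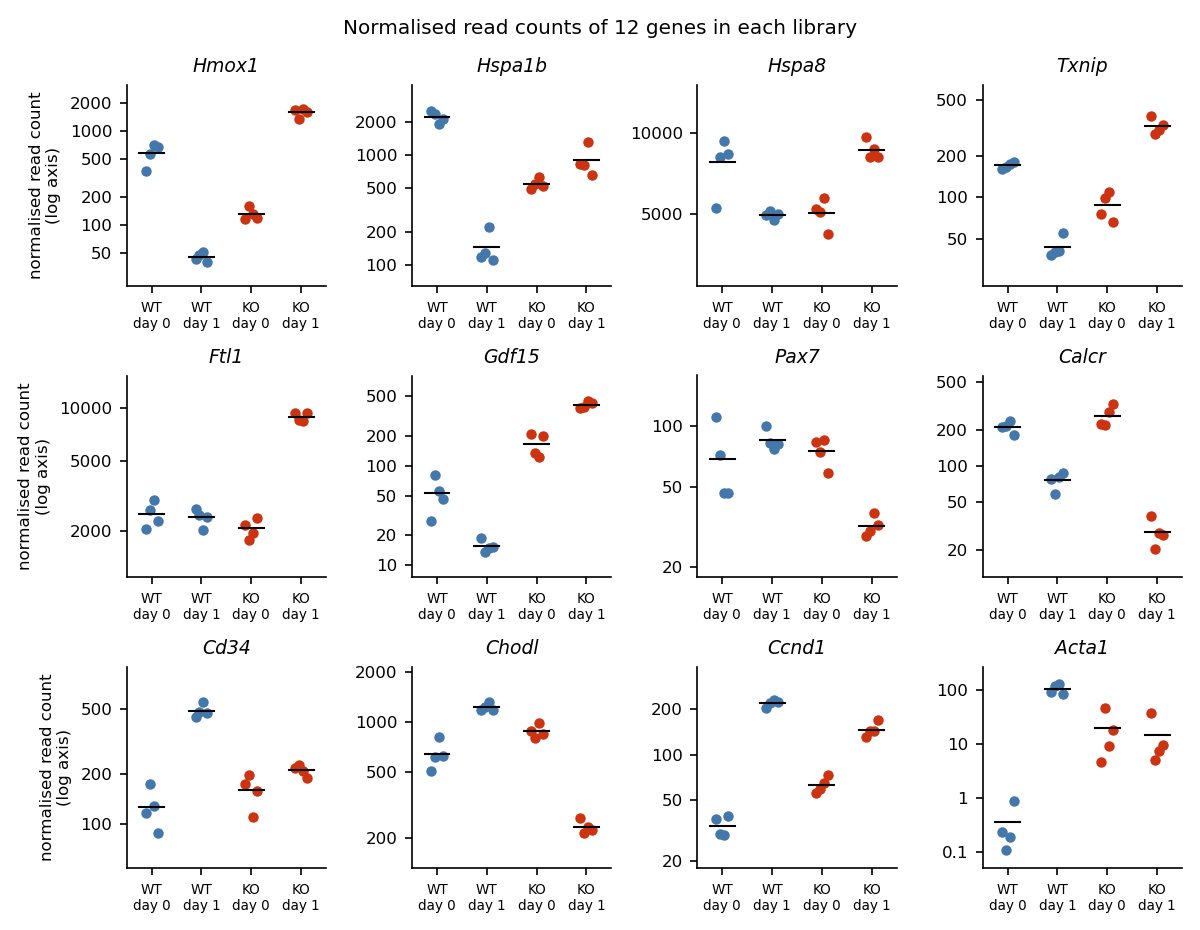
Normalised read count (log y axis, a separate scale for each gene) in each of the 16 libraries, by genotype and day, with points for libraries and bars for the mean of 4. Hmox1, Hspa1b and Txnip are lower in KO than in WT at day 0 and higher at day 1, while Pax7, Calcr and Chodl overlap at day 0 and are lower in KO at day 1.

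Genes of the NRF2 pathway, which make glutathione and reduce peroxides, behaved like Hmox1 in part. Of 30 tested, 12 had an interaction above 0 and 0 below (median 0.87, with medians of 0.27 in WT and 1.31 in KO), but only 5 were above 0 and 1 below under quantile normalization. The 12 were Nfe2l2, which encodes NRF2 itself, Gclc, Gclm, Txnrd1, Txn1, Srxn1, Prdx6, Gstp1, Sqstm1, Sod1, Sod2 and Gpx4. Srxn1, which repairs oxidised peroxiredoxins, stood at 43.8, 74.8, 51.4 and 71.2 in KO at day 0 and 346, 328, 450 and 359 at day 1, above all WT libraries of day 1 (58.3, 114, 129 and 48.2). Its change in WT was −0.45 ± 0.32 and did not pass, and its interaction was 3.07 ± 0.46. Gclc, the catalytic subunit for glutathione synthesis, showed the other form of interaction. It fell in WT from 91.8 ± 29.6 to 7.92 ± 1.72, whereas KO had 35.6 ± 5.46 and 27.4 ± 5.96, a change that did not pass, and its interaction was 2.97 ± 0.37. Sqstm1, the autophagy adaptor p62 that also feeds back on NRF2, fell in WT and rose in KO (interaction 1.69 ± 0.22). Prdx6, a peroxiredoxin, rose in both genotypes and more in KO (interaction 1.12 ± 0.16, and 0.57 under quantile normalization).

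Txnip, the inhibitor of thioredoxin that also restrains glucose uptake, reversed without overlap on either day. It stood at 161, 166, 174 and 181 in WT at day 0 and 38.3, 40, 41 and 55.5 at day 1. KO went from 75.3, 99.2, 110 and 66.5 to 387, 286, 308 and 333, an interaction of 3.87 ± 0.25 (adjusted p = 3.58e-08). Gdf15, a stress-induced cytokine, was already higher in KO before injury (167 ± 44.9 against 53.1 ± 22.2). It fell in WT to 18.6, 13.5, 15 and 15.1 and rose in KO to 379, 390, 454 and 427, an interaction of 2.95 ± 0.37. Cyp26a1, which degrades retinoic acid, overlapped at day 0, with KO values of 32.2, 0.465, 8.25 and 20.8. At day 1 it was 1.1, 0.436, 2.51 and 0.517 in WT and 148, 103, 113 and 128 in KO, an interaction of 6.79 ± 1.03 (adjusted p = 0.000381; 4.86 to 7.37 over the alternatives).

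Among 3 other stress programmes, all called interactions lay above 0 in 2 lists and on both sides of 0 in the third. Over all genes 7.26% were above 0 and 3.63% below. Of 28 ATF4 targets and serine synthesis genes, which respond to amino acid shortage and to mitochondrial and endoplasmic reticulum stress, 9 had an interaction above 0 and 0 below (median 1.35). Slc7a5 and Slc3a2 encode the light and heavy chains of a large neutral amino acid transporter. Slc7a5 fell in WT from 48.7 ± 9.62 to 18.8 ± 4.33 and rose in KO from 31.1 ± 9.53 to 57.2 ± 6.56 (interaction 2.22 ± 0.35), and Slc3a2 rose in KO, with no called change in WT (interaction 1.53 ± 0.23). Cebpb, a transcription factor of this response, fell in WT to 5.75, 3.97, 1.9 and 3.52, while KO libraries at day 1 held 17.8, 15.2, 14.2 and 24.7 (interaction 2.24 ± 0.45). Mthfd2, a mitochondrial folate enzyme, rose in both genotypes, from a mean of 2.95 in KO and 24.5 in WT at day 0 to overlapping levels at day 1. Its interaction was 3.09 ± 0.75 (adjusted p = 0.013 with limma, 0.0923 with edgeR). Of 27 endoplasmic reticulum stress genes, 8 were above 0 and 0 below (median 0.47). Hspa5, the chaperone BiP of that compartment, had an interaction of 0.94 ± 0.20, which was lost under quantile normalization (0.30, adjusted p = 0.468) and without the mean-variance trend (adjusted p = 0.0569). Of 26 p53 targets, 3 were above 0 and 2 below (median −0.05), counts not far from the shares of all genes. Cdkn1a, the p53-driven cell cycle inhibitor, was higher in KO in every library on both days (348 ± 12.4 in WT and 647 ± 44.7 in KO at day 0; 297 ± 50.2 and 526 ± 42.2 at day 1), and its interaction was −0.05 ± 0.17 (adjusted p = 0.883).

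**Figure D4:**
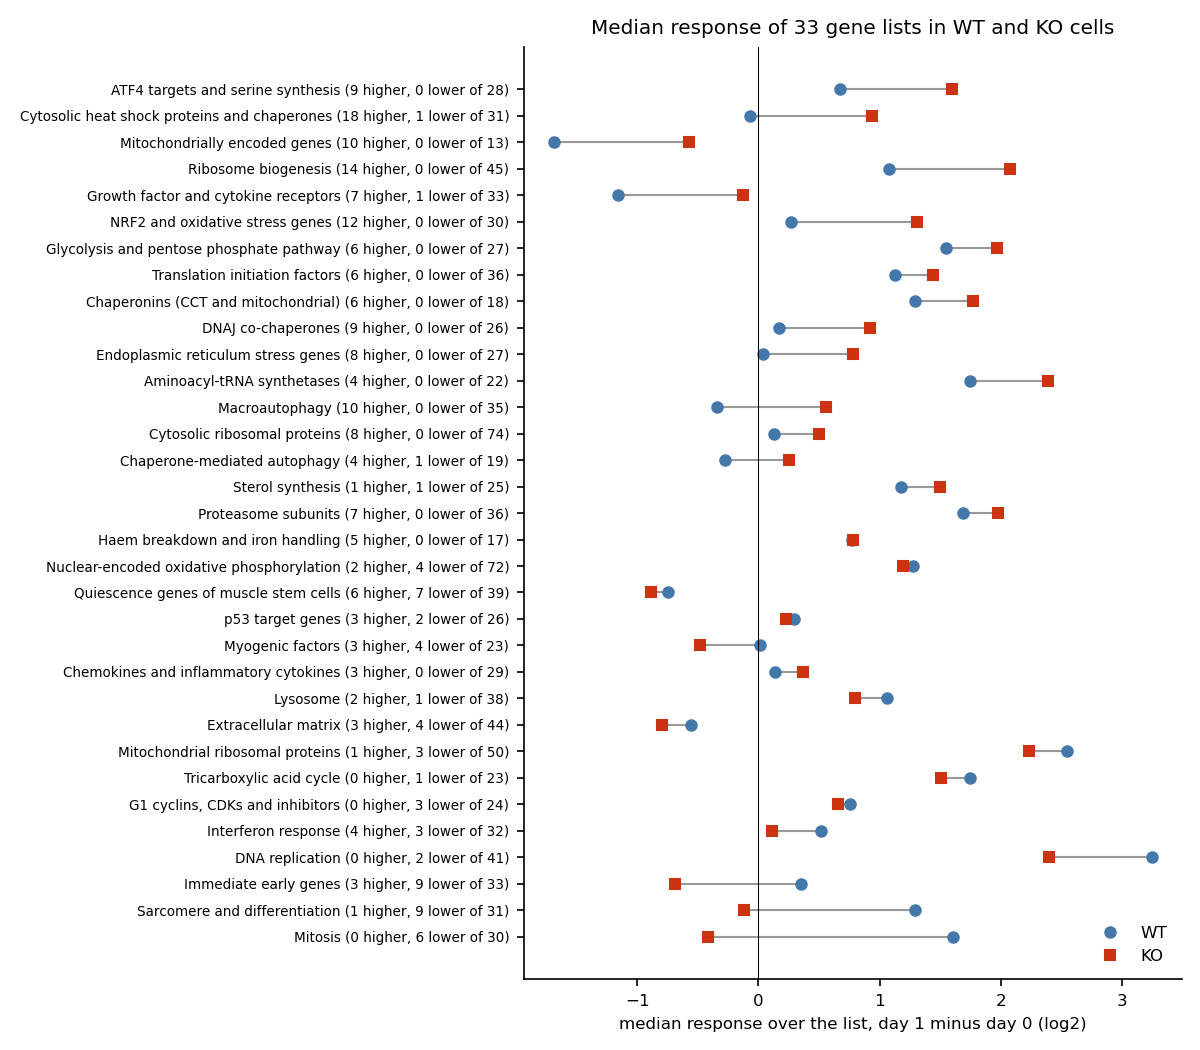
Median log2 change from day 0 to day 1 over each of 33 gene lists in WT (circles) and KO (squares), ordered by the median interaction, with the number of members above and below 0 past the threshold beside each name. Heat shock proteins lie at −0.07 in WT and 0.94 in KO, and mitosis genes at 1.61 and −0.42.

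Protein turnover was described by 4 lists, for chaperone-mediated autophagy, macroautophagy, the lysosome and the proteasome. Some members are also in lists above, such as Nfe2l2 (chaperone-mediated autophagy and NRF2) and Sqstm1 (macroautophagy and NRF2). The lists are therefore not separate measures. Of 19 genes of chaperone-mediated autophagy and its regulators, 4 were above 0 and 1 below, with Cyp26a1, Hspa8, Hsp90aa1 and Nfe2l2 above and the lysosomal protease Ctsa below (median 0.38), and 2 above and 2 below under quantile normalization. Of 35 macroautophagy genes, which build the autophagosome, 10 were above 0 and 0 below (median 0.44, WT −0.34 and KO 0.56), but 4 under quantile normalization and 5 to 9 when any library was left out. Gabarapl1, a member of the ATG8 family on autophagosome membranes, fell in WT from 105 ± 19.8 to 61.7 ± 4.29 and rose in KO from 110 ± 22 to 228, 201, 267 and 214. Its interaction was 1.79 ± 0.25 (adjusted p = 0.000195). Atg14, a subunit of the kinase complex that starts autophagosomes, fell in WT and rose in KO from 3.04 to 9.62 (interaction 3.10 ± 0.69; 2.06 to 3.57 over the alternatives). Of 38 lysosome genes, 2 were above 0 and 1 below (median −0.20), counts near the share of all genes. Proteasome subunits rose in both genotypes (31 of 36 in WT and 35 in KO), with 7 interactions above 0 and 0 below (3 above under quantile normalization and 4 with DESeq2) and a median of 0.27 that turned to −0.16 under quantile normalization. Psme4, an activator of the proteasome, instead fell from 218 ± 21.3 to 52.4 ± 4.73 in WT and less in KO, from 156 ± 21.4 to 101 ± 9.89 (interaction 1.42 ± 0.21).

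Ribosome biogenesis, which activated stem cells use to grow, rose further in KO from a lower start. Of 45 genes, 14 had an interaction above 0 and 0 below, with a median of 0.98. The median change was 1.08 in WT and 2.08 in KO. The median genotype difference was −0.94 at day 0, and 0.02 at day 1. All KO libraries lay below all WT libraries at day 0 in 14 of the 45, against 4.19% of all genes. Nip7, a factor for large ribosomal subunits, shows the pattern. It stood at 158, 127, 186 and 179 in WT and 57.7, 61.1, 38.5 and 70.7 in KO before injury, without overlap. On day 1 it stood at 298, 258, 258 and 303 and 315, 295, 277 and 289, with overlap, and its interaction was 1.59 ± 0.25. Polr1b, the second largest subunit of RNA polymerase I, rose from 0.232, 1.11, 2.68 and 0.776 in KO and from 18.4 ± 10.2 in WT to overlapping levels (interaction 3.04 ± 0.57; 1.76 to 3.80 over the alternatives). Gnl3, the nucleolar protein nucleostemin, fell in WT from 824 ± 85.7 to 345 ± 26.2 and stood at 424 ± 81.6 and 436 ± 22.2 in KO (interaction 1.31 ± 0.18). The interaction of Ncl, which encodes nucleolin, was 0.88 ± 0.11 with limma (adjusted p = 9.65e-05) but 0.37 under quantile normalization (adjusted p = 0.0512).

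Other parts of the translation machinery had smaller list medians. Of 22 aminoacyl-tRNA synthetases 4 were above 0, and of 36 translation initiation factors 6, with 0 below in each list (medians 0.45 and 0.57), but 3 initiation factors above and 2 below under quantile normalization. Eif4ebp1, a repressor of cap-dependent translation counted in the latter group, rose from 90.1 ± 22.4 to 516 ± 30.3 in KO and from 196 ± 37.5 to 311 ± 33.3 in WT (interaction 1.87 ± 0.25). Of 74 cytosolic ribosomal protein genes, 8 were above 0, against 7.26% of all genes, and 0 below, while the median was 0.38 and became 0.00 under quantile normalization, with 1 above and 1 below. The count for these genes ranged from 4 to 25 when single libraries were left out. Rpl12 fell in WT by 1.78 ± 0.16, with a change of −0.08 ± 0.16 in KO that did not pass (interaction 1.70 ± 0.22). The interaction of Rpl3 (0.72 ± 0.15) was lost under quantile normalization (0.22, adjusted p = 0.262) and without the mean-variance trend (adjusted p = 0.0877).

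Transcripts made inside mitochondria fell in WT and fell less in KO. All 13 mitochondrially encoded genes fell in WT (median −1.69), whereas 7 fell and 1 rose in KO (median −0.57). Of the 13, 10 had an interaction above 0 and 0 below, with 6 under quantile normalization, and all 13 estimates were above 0. mt-Atp6, a subunit of the ATP synthase, stood at 5692, 4808, 3727 and 4536 in WT and 13569, 10056, 8697 and 13627 in KO at day 1, without overlap, after overlapping levels of 19308 ± 2136 and 20730 ± 7143. Its interaction was 1.23 ± 0.27. mt-Nd5, a subunit of complex I, fell by 0.94 ± 0.20 in WT and rose by 0.54 ± 0.20 in KO (interaction 1.48 ± 0.29). The nuclear genes of oxidative phosphorylation did not share this: 2 of 72 were above 0 and 4 below, around a median of 0.04. Under quantile normalization 1 was above and 12 below (median −0.24), and with DESeq2 2 above and 10 below. Of 27 glycolysis and pentose phosphate genes, 6 were above 0 and 0 below (median 0.63), but 1 under quantile normalization. The 6 were Hk1, Pfkp, Aldoa, Gapdh, Eno1 and Pkm. Aldoa, the glycolytic aldolase, had an interaction of 0.89 ± 0.16, or 0.39 under quantile normalization (adjusted p = 0.197). Eno1b, a retrocopy of the enolase Eno1 with which it may share reads, rose from 53.5, 36.1, 65.7 and 56.1 to 908, 948, 1033 and 837 in KO and from 4.13 ± 1.32 to 8.95 ± 2.32 in WT (interaction 3.18 ± 0.35). Cd320, the receptor for vitamin B12 uptake, held 14 counts in the 4 KO libraries of day 0 together and rose to 96.2, 87.4, 76.5 and 93.4. In WT it rose from 19.2, 7.7, 8.12 and 10.9 to 72.1 ± 2.48, and the interaction of 3.56 ± 0.42 ranged from 1.88 to 5.91 with the pseudocount and tool.

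Some genes that fell in WT fell less in KO, or had no called change there. Samd4, an RNA-binding repressor of translation, stood at 304, 264, 236 and 311 in WT at day 0 and 10.2, 8.97, 10.8 and 8.69 at day 1. In KO it went from 175, 198, 188 and 212 to 74.2, 74.1, 69.7 and 85.5, an interaction of 3.37 ± 0.22 (adjusted p = 3.58e-08). Both falls passed, and the groups did not overlap on either day. Tmtc2, a protein of the endoplasmic reticulum that adds mannose to cadherins, fell in WT from 107 ± 20.7 to 4.06 ± 1.36, while KO had 36 ± 13.1 and 21.6 ± 6.05 (interaction 3.75 ± 0.42). Fgfr1, a receptor for fibroblast growth factors that activate satellite cells, fell from 722 ± 26.4 to 127, 145, 144 and 116 in WT and from 530 ± 29.7 to 299, 321, 352 and 305 in KO (interaction 1.70 ± 0.15). It belongs to a list of 33 growth factor and cytokine receptors with 7 interactions above 0 (Fgfr1, Osmr, Bmpr2, Notch1, Notch3, Plaur and Cd44) and 1 below (Fgfr4), whose median change was −1.16 in WT and −0.13 in KO. Btg1, an antiproliferative factor of quiescent cells, fell in WT to 231, 156, 141 and 161 from 794 ± 85, and in KO stood at 672 ± 55.3 and 729 ± 75.3 (interaction 2.33 ± 0.20).

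Several genes of stem cell identity took the opposite course and were lower in KO after injury, but the muscle stem cell markers as a list were mixed. Of 14 such markers, 5 had a called interaction below 0 and 2 above. Of the 14 estimates, 8 were above 0 (median 0.38). The summed level of these markers, Myod1 among them, ran from 4732 to 6983 in WT and 5804 to 8105 in KO at day 1. Pax7 (ENSMUSG00000028736) stood at 111, 71.9, 46.5 and 46.6 in WT and 83.4, 74.4, 85.3 and 58.4 in KO at day 0, with overlap. After injury it stood at 100, 82.7, 77.2 and 81 in WT and 28.5, 30.2, 37 and 32.4 in KO, without overlap. Pax7 fell by 1.20 ± 0.25 in KO (adjusted p = 0.000682), its change in WT was 0.39 ± 0.25 and did not pass, and its interaction was −1.59 ± 0.35 (adjusted p = 0.00663; −1.85 to −1.44 over the alternatives). Since the Cre of KO mice is driven from Pax7, an effect of that allele on Pax7 reads cannot be told apart from the genotype. Calcr, the calcitonin receptor that holds satellite cells in quiescence, fell in both, to 78.1, 58.3, 81.9 and 87.6 in WT and 38.9, 20.6, 27.9 and 27 in KO, from overlapping levels of 211 ± 22.9 and 262 ± 51.4. Its interaction was −1.70 ± 0.28 (adjusted p = 0.00088). Chodl, a surface lectin of satellite cells, rose in WT to 1190, 1227, 1320 and 1186 and fell in KO to 265, 215, 234 and 222, from 641 ± 128 and 878 ± 83. The interaction of Chodl was −2.86 ± 0.18 (adjusted p = 3.54e-08).

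Other genes of satellite cells, most of them for surface or secreted products, diverged in both directions. Cd34, a sialomucin of quiescent satellite cells and of vascular and stromal cells, rose in WT from 126 ± 35.8 to 442, 475, 549 and 471. In KO it was 160 ± 36.9 and then 217, 226, 209 and 190, a change that did not pass, and the interaction was −1.54 ± 0.27 (adjusted p = 0.00144). Nppc, the C-type natriuretic peptide precursor, fell in KO to 13.3, 39.6, 19.4 and 44.6 from 125 ± 15.9, and stood at 164 ± 17.4 and 185 ± 44 in WT (interaction −2.36 ± 0.41). Msc, which encodes the myogenic repressor musculin, rose in KO from 117 ± 27.9 to 261, 335, 586 and 412, with 194 ± 32.9 and 195 ± 30.8 in WT (interaction 1.70 ± 0.32). Plaur, the urokinase receptor, rose in KO to 622, 538, 594 and 615 and in WT to 337, 309, 309 and 273 from 108 ± 18.9 and 220 ± 22.6 (interaction 1.97 ± 0.19). Cd44, the hyaluronan receptor, rose in KO from 257 ± 52.9 to 708 ± 78.3, with no called change in WT (interaction 1.79 ± 0.23). Sdc4, a heparan sulphate proteoglycan of satellite cells, and Gpx3, a secreted glutathione peroxidase, had interactions of 1.30 ± 0.26 and 1.29 ± 0.22, which were 0.81 and 0.02 under quantile normalization and did not pass there.

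As a list, quiescence genes showed no common shift. Of 39 tested, 6 were above 0 and 7 below, with medians of −0.75 in WT and −0.89 in KO. Calls were thus more frequent than over all genes on both sides (7.26% above 0 and 3.63% below). Of 23 myogenic factors, 3 were above 0 and 4 below (7 with DESeq2), and of 14 muscle stem cell markers, 2 above and 5 below. These too exceeded the shares of all genes on both sides. Spry1, an inhibitor of growth factor signalling in quiescent cells, had an interaction of 0.10 ± 0.42 (adjusted p = 0.914). The commitment genes rose in both genotypes. Myod1 rose by 3.28 ± 0.29 in WT and 4.21 ± 0.29 in KO, with KO libraries at day 1 (1591, 1907, 2191 and 1583) all above those of WT (840, 954, 1266 and 815). Its interaction of 0.93 ± 0.40 did not pass (adjusted p = 0.16), although it did without replicate 1 of WT day 0 (1.21, adjusted p = 0.0369). Myf5 rose by 1.06 ± 0.21 and 1.58 ± 0.21 and was lower in KO in every library on both days, with an interaction of 0.53 ± 0.30 (adjusted p = 0.289).

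Where interactions of cell cycle genes passed with limma, they were below 0. Ccnd1, the cyclin D1 that carries cells out of G1, stood at 37.5, 30, 29.6 and 39.3 in WT and 55.6, 59.1, 65.2 and 73.7 in KO before injury. At day 1 it stood at 203, 221, 230 and 223 in WT and 130, 143, 144 and 169 in KO. KO was the higher genotype at day 0 and the lower at day 1, without overlap, and the interaction was −1.46 ± 0.22 (adjusted p = 0.000369). DNA replication genes rose in both genotypes (38 of 41 in WT, median 3.25, and 33 in KO, median 2.40). Of the 41, 2 had an interaction below 0 (Gins2 and Gins4) and 0 above, with 4 below by DESeq2. The 2 below are near the share of all genes (3.63% below 0, and 7.26% above). Mcm3, a subunit of the replicative helicase, rose from 0.378, 9.01, 0.346 and 6.95 to 237 ± 52.1 in WT and from 16.9, 4.54, 8.2 and 15.2 to 166 ± 40.3 in KO. Its interaction of −2.18 ± 0.80 did not pass (adjusted p = 0.0926), but did with all 24 libraries (0.0403) and without replicate 2 or 4 of WT day 0. Gins4, a subunit of the GINS complex of the helicase, had an interaction of −2.67 ± 0.76 (adjusted p = 0.0326), which was lost with edgeR (0.0876) and when most of the single libraries were left out.

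Mitosis genes had a median interaction of −2.21, the lowest of the 33 pathway lists, which ran from −3.07 to −1.19 over the alternatives. All 30 estimates were below 0, yet 6 of 30 passed (4 with edgeR and 9 with DESeq2), against 3.63% of all genes. The median change was 1.61 in WT (14 rose) and −0.42 in KO (7 fell, 1 rose), and KO exceeded WT before injury by a median of 1.60. Nuf2, a kinetochore protein, held 3 counts in the 4 WT libraries of day 0 together and 12, 2.68, 9.63 and 19 in KO. By day 1 it stood at 7.2, 8.92, 4.66 and 4.11 in WT and 3.64, 5.54, 2.69 and 4.73 in KO, and the interaction of −3.68 ± 0.66 ranged from −8.40 to −1.81 with the pseudocount and tool. Mki67, the proliferation marker, was uneven at day 0, with 0.103, 2.23, 0.346 and 0.0997 in WT and 43.4, 2.75, 0.304 and 3.24 in KO. On day 1 it stood at 8.53, 18.6, 7.9 and 5.44 and 4.25, 10.2, 2.48 and 1.47, with overlap. Its interaction of −2.96 ± 1.15 did not pass (adjusted p = 0.115), and passed with DESeq2 (−5.52, adjusted p = 0.00951), with all 24 libraries (0.0436) and without replicate 3 of KO day 0.

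Immediate early genes, which cells switch on within minutes of a stimulus, including dissociation from tissue, were mostly below 0. Of 33, 9 had an interaction below 0 and 3 above (median −0.87), and 12 were below under quantile normalization and 15 with DESeq2. In the same genes there were 12 rises and 9 falls in WT and 6 rises and 16 falls in KO. The 9 were Fos, Fosb, Junb, Egr1, Egr2, Nr4a1, Zfp36, Btg2 and Socs3, and the 3 were Jun, Dusp1 and Btg1. Fosb, a subunit of AP-1, stood at 142, 140, 140 and 154 in WT and 198, 206, 182 and 314 in KO before injury. After 1 day it stood at 274, 219, 163 and 205 in WT and 46.8, 48.9, 32.1 and 79.9 in KO, without overlap. Its interaction was −2.69 ± 0.33 (adjusted p = 7.41e-05). Btg2, an antiproliferative gene, rose in WT from 115 ± 7.23 to 242 ± 26.3 and fell in KO from 175 ± 16.5 to 110 ± 20.6 (interaction −1.73 ± 0.21). Outside this list, Filip1l, a regulator of the cytoskeleton, fell in KO from 358 ± 62.6 to 12.4, 17, 21.5 and 22.9 and in WT from 175 ± 39.8 to 102, 111, 70.4 and 93.7 (interaction −3.35 ± 0.32).

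Contractile genes rose in WT (16 of 31 sarcomere and differentiation genes) and seldom in KO (3 rose and 6 fell). Of the 31, 9 had an interaction below 0 and 1 above (median −1.18, WT 1.29 and KO −0.12). The median ran from −2.67 to −0.71 over the alternatives, and 6 were below 0 with edgeR. Acta1, the skeletal muscle actin, stood at 0.241, 0.109, 0.192 and 0.897 in WT and 4.68, 46.6, 8.97 and 17.9 in KO at day 0. After injury it stood at 89.5, 117, 125 and 82 in WT and 36.7, 4.97, 7.27 and 9.54 in KO. KO was higher before injury and lower after it, without overlap, and the interaction was −6.62 ± 0.84 (adjusted p = 9.24e-05; −8.88 to −4.60 over the alternatives). Ckm, the muscle creatine kinase, rose in WT to 29.3, 23.7, 32.2 and 20.7, from a total of 24 counts at day 0, while KO held 2.31, 2.42, 1.43 and 3.66 at day 1 (interaction −4.43 ± 0.86; −7.02 to −2.73). Tnnt3, the fast skeletal troponin T, rose in WT from 4.3 ± 2.32 to 22.7 ± 3.23 and fell in KO from 13.3 ± 5.52 to 4.25 ± 0.708 (interaction −3.58 ± 0.56). Myog, the factor of terminal differentiation, held a total of 2 counts in WT at day 0 and varied widely elsewhere. It was 54.9, 3.19, 3.31 and 20.3 in WT at day 1, and in KO 0.0332, 65.1, 17.9 and 1.51 before injury and 11, 5.16, 0.0261 and 2.01 after. Its interaction of −4.45 ± 1.58 did not pass with limma (adjusted p = 0.0826) but did with edgeR (0.0166), DESeq2 (0.000377) and all 24 libraries (0.029), and without replicate 1 of KO day 0.

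Acta1, Ckm and Tnnt3 are also among 15 mature myofibre markers, of which 9 had an interaction below 0 and 0 above. The summed level of these markers ran from 55.7 to 86.2 in WT and 71.1 to 104 in KO at day 0. By day 1 it ran from 265 to 378 in WT and 54.4 to 97.1 in KO. Because this sum shares genes with the contractile list, it is no separate measure of myofibre RNA. The part of myofibre RNA in the interaction of the contractile genes was not tested. In bulk libraries, fewer cells of a type and less RNA per cell cannot be told apart.

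**Figure D5:**
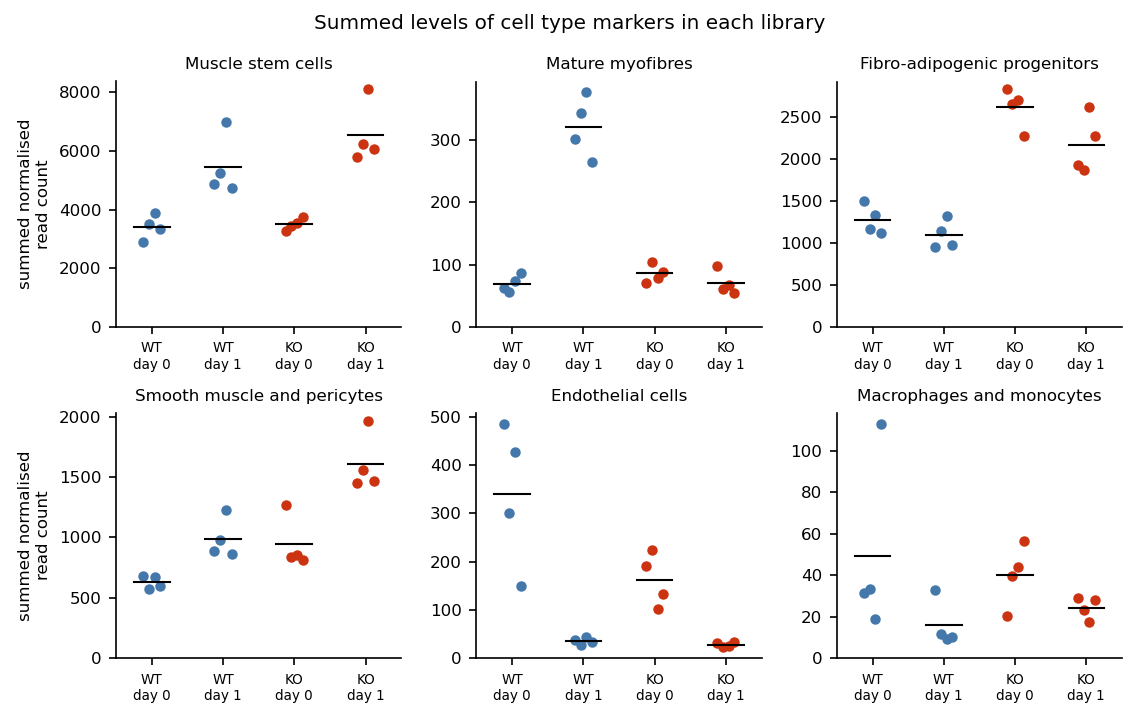
Summed normalised read count (y axis from 0) of the markers of 6 cell types in each library, by genotype and day, with points for libraries and bars for the mean of 4. Myofibre markers stand between 265 and 378 in WT at day 1 and at or below 104 in the other 3 groups, while the summed level for fibro-adipogenic progenitors is higher in KO than in WT on both days.

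Interactions of markers of other cell types are given by their counts, against 7.26% of all genes above 0 and 3.63% below. Summed Schwann and glial markers ran from 419 to 478 in WT and 185 to 379 in KO at day 0. At day 1 they ran from 194 to 254 and 152 to 179, with 0 of 8 called. Summed markers of fibro-adipogenic progenitors, the collagen-making stromal cells of muscle, ran from 1117 to 1503 in WT and 2283 to 2835 in KO at day 0, and from 952 to 1322 and 1871 to 2624 at day 1, with 1 of 13 above 0 and 0 below. Taken singly, 4 of the 13 had all KO libraries above all WT libraries at day 0 and 0 had all below, against 3.50% and 4.19% of all genes. Smooth muscle and pericyte markers, which include Des of the myogenic lineage, ran from 577 to 679 in WT and 813 to 1272 in KO at day 0, and from 860 to 1230 and 1450 to 1961 at day 1, with 1 of 9 above 0. Endothelial markers ran from 149 to 485 and 102 to 224 at day 0 and stood at or below 43.8 in every library at day 1, with 0 of 7 called by limma and 2 above 0 by DESeq2. Macrophage and monocyte markers ran from 9.4 to 113 over all libraries. In KO at day 1 they stood between 17.4 and 28.9, when Hmox1, a gene those cells also express, was between 1333 and 1733. The part of those cells in the Hmox1 level was not tested.

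Extracellular matrix genes had interactions of both signs. Of 44 extracellular matrix genes, 3 were above 0 and 4 below (7 below with DESeq2), against 7.26% and 3.63% of all genes. At day 0 all KO libraries lay above all WT libraries in 16 of the 44, against 3.50% of all genes. Sparc, a collagen-binding matrix protein, stood at 280, 403, 476 and 446 in WT and 1913, 1461, 1886 and 1918 in KO at day 0. It rose in WT to 1486, 1355, 1461 and 1151, and KO stood at 1862, 2057, 2168 and 2222, above WT on both days by a narrowing margin (interaction −1.57 ± 0.21, adjusted p = 0.000119). Fibro-adipogenic progenitors express Sparc too, and the part of their markers in this value was not tested. Lama4, a laminin chain, fell in KO from 33.5, 37.5, 17.9 and 29.2 to 0.194, 0.072, 0.13 and 2.65 and in WT from 3.93 ± 0.944 to 1.33 ± 0.662. Its interaction of −3.18 ± 0.63 was lost with edgeR (adjusted p = 0.0733). Adam12, a metalloprotease of regenerating muscle, rose in WT from 0.997, 0.474, 0.423 and 1.1 to 41.2 ± 2.75 and in KO from 13.8, 11.3, 9.58 and 14.7 to 27.6 ± 9.03 (interaction −3.56 ± 0.45; −4.82 to −2.13 over the alternatives).

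Not all antioxidant genes had interactions above 0. Gpx7, a peroxidase of the endoplasmic reticulum, rose in WT from 0.103, 1.57, 0.346 and 8.01 to 32.5 ± 2.22, while KO held 32.4 ± 3.45 before injury and 22 ± 5.75 after (interaction −4.36 ± 0.69). Sod3, the extracellular superoxide dismutase, rose in WT from 1.34, 1.93, 16.4 and 3.09 to 114, 98.9, 108 and 113 and in KO from 41.5, 25.5, 41 and 36.4 to 67.7, 73.5, 81.6 and 104 (interaction −3.38 ± 0.62). Igf1, the growth factor that drives muscle growth, was chosen after its values were seen. It stood at 104, 90.3, 47.5 and 67.1 in KO at day 0 and 6.19, 6.36, 8.73 and 7.35 at day 1, against 22.8 ± 5.18 and 20.2 ± 3.75 in WT, so that KO was above WT before injury and below it after (interaction −3.05 ± 0.40, adjusted p = 0.000118).

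Large genotype differences need not give an interaction. Pthlh, which encodes parathyroid hormone-related protein, stood at 620, 464, 614 and 623 in KO at day 0 and 370, 463, 427 and 448 at day 1. In WT it was at or below 2.29 in every library of both days. Its genotype differences were 8.43 ± 0.30 at day 0 and 8.03 ± 0.30 at day 1, and its interaction was −0.40 ± 0.43 (adjusted p = 0.618). The remaining lists are given by their counts, against 7.26% of all genes above 0 and 3.63% below. Of 32 interferon response genes 4 were above 0 and 3 below (1 below with edgeR), and of 29 chemokines and cytokines 3 were above and 0 below. Of 25 sterol synthesis genes 1 was above and 1 below. Of 50 mitochondrial ribosomal proteins 1 was above and 3 below, but 7 below with DESeq2, and of 23 genes of the tricarboxylic acid cycle 0 were above and 1 below, but 4 below under quantile normalization. Of 24 G1 cyclins, kinases and inhibitors 0 were above and 3 below, namely Ccnd1, Ccnd3 and Rbl1 (5 below and 1 above with DESeq2).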

How the data were processed

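Muscle stem cell RNA was sequenced after SMART-Seq v4 library preparation, per the labels' protocols, and all libraries carry batch label 1. FastQC, STAR, RSEM, limma and the build mm39 are named, without versions, per the submitters' processing notes. Use of strand is not given in the sources used here, so overlapping and antisense genes cannot be told apart. The table the authors deposited holds a linear normalised signal for 17111 genes, and no column lacked a sample. Each value equals a whole count plus 0.5 over a scaled library size in M, as found from the table, where 100% of values came back whole within 0.02. A count of 3 in a library corresponds to a value between 0.145 and 0.32, a floor for counting error only.

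Tests covered the 14841 genes that reached a value of 1 in 4 or more of the 16 libraries. One mean per group was fitted to log2(value + 1) using limma 3.58.1 (R 4.3.3), a mean-variance trend, two-sided tests and Benjamini-Hochberg adjustment per contrast at 0.05. This scale understates changes of low genes. The count tests edgeR 4.0.16 (1361 interactions) and DESeq2 1.42.0 (2052) on the recovered counts were alternatives, beside other filters, pseudocounts, scalings, weights, blocks and libraries left out. No pair of libraries of a group agreed within sampling noise (lowest chi-square per degree of freedom 14.4).

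Simulated counts over 14841 genes, 200 of them changed, served to check calls of the interaction. There 3% of the 2-fold, 19.4% of the 4-fold and 45.5% of the 16-fold changes were found. Of the 58 calls, 13 (22.4%) were unchanged genes, a larger share than the threshold of 0.05 is set to allow. Among unchanged genes, 5.53% had an unadjusted p under 0.05 (limma). The cause of this excess was not tested. The share of unchanged genes among the 1616 interactions is not known and may also exceed the threshold.

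Gene lists and genes to name were chosen with earlier results of these data known. Named are Lamp2, 14 genes fixed by name, the 12 largest interactions each way (mean of at least 8, groups apart on at least 1 day, no predicted genes), the 4 largest per class and direction, and up to 4 members per list with the smallest p. The text names a part of these, Igf1 besides, and where it gives all called members of a list, those without values fall outside the rule and were chosen after their values were seen. Promoters came from a RefSeq table on GRCm38.p6. Coordinates of genes are not used here.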

Additional observations from a re-analysis of the deposited data

Results flagged for a closer look

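The response to injury differed between the genotypes, by the test of the interaction itself, in 1616 genes. These tests are those of the report, and their sizes on the log2 scale are gathered here for the 68 genes named with values there. Interactions above 4 were Hmox1 (7.21), Cyp26a1 (6.79), Hspa1a (4.81) and Hspa1b (4.66). Those between 2.5 and 4 were Txnip (3.87), Tmtc2 (3.75), Cd320 (3.56), Samd4 (3.37), Eno1b (3.18), Hsph1 (3.16), Cryab (3.12), Atg14 (3.10), Mthfd2 (3.09), Srxn1 (3.07), Polr1b (3.04), Gclc (2.97) and Gdf15 (2.95). Those between 1.5 and 2.5 were Btg1 (2.33), Cebpb (2.24), Slc7a5 (2.22), Ftl1 (2.17), Dnajb1 (2.03), Hspe1 (1.99), Plaur (1.97), Dnaja1 (1.94), Eif4ebp1 (1.87), Gabarapl1 (1.79), Cd44 (1.79), Rpl12 (1.70), Fgfr1 (1.70), Msc (1.70), Sqstm1 (1.69), Nip7 (1.59), Hsp90aa1 (1.58) and Slc3a2 (1.53). The smaller ones above 0 were mt-Nd5 (1.48), Psme4 (1.42), Hspa8 (1.39), Gnl3 (1.31), Sdc4 (1.30), Gpx3 (1.29), mt-Atp6 (1.23), Hsp90ab1 (1.22), Prdx6 (1.12), Hspa5 (0.94), Aldoa (0.89), Ncl (0.88) and Rpl3 (0.72). Below 0, the larger were Acta1 (−6.62), Ckm (−4.43), Gpx7 (−4.36), Nuf2 (−3.68), Tnnt3 (−3.58), Adam12 (−3.56), Sod3 (−3.38), Filip1l (−3.35), Lama4 (−3.18), Igf1 (−3.05), Chodl (−2.86), Fosb (−2.69) and Gins4 (−2.67), and the others were Nppc (−2.36), Btg2 (−1.73), Calcr (−1.70), Pax7 (−1.59), Sparc (−1.57), Cd34 (−1.54) and Ccnd1 (−1.46).

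In 23 of 308 groups of 4 values, 1 library stood apart from the other 3 by Dixon's criterion, where chance gives about 1 in 20. In WT day 1 these were Hspa1a in replicate 3 (144 against 63.3 to 74.4), Hspa1b in replicate 3 (221 against 113 to 129), Txnip in replicate 4 (55.5 against 38.3 to 41), Mthfd2 in replicate 1 (138 against 174 to 180), Tmtc2 in replicate 1 (6.08 against 3.21 to 3.62) and Pthlh in replicate 4 (2.29 against 0.258 to 0.344). In KO day 1 these were Hsph1 in replicate 2 (712 against 840 to 845), Acta1 in replicate 1 (36.7 against 4.97 to 9.54) and Lama4 in replicate 4 (2.65 against 0.072 to 0.194). In WT day 0 these were Hsp90ab1 in replicate 3 (4512 against 4131 to 4143), Gnl3 in replicate 4 (952 against 770 to 794), Mki67 in replicate 2 (2.23 against 0.0997 to 0.346), Gins4 in replicate 4 (6.55 against 0.192 to 1.06), Acta1 in replicate 4 (0.897 against 0.109 to 0.241), Tnnt3 in replicate 3 (7.74 against 2.69 to 3.54), Ckm in replicate 1 (1.41 against 0.0997 to 0.192) and Sod3 in replicate 3 (16.4 against 1.34 to 3.09). In KO day 0 these were Cebpb in replicate 4 (38.8 against 26.3 to 27), Mthfd2 in replicate 4 (10.1 against 0.179 to 1.24), mt-Nd5 in replicate 4 (2060 against 1052 to 1187), Mki67 in replicate 1 (43.4 against 0.304 to 3.24), Sparc in replicate 2 (1461 against 1886 to 1918) and Pthlh in replicate 2 (464 against 614 to 623).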

How the results depend on the processing

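The count of genes with an interaction stayed between 1116 and 2086 over 27 alternatives. No gene named with a called interaction changed sign in any of them, while the uncalled estimates of Lamp2 (−0.31 to 0.22), Spry1 (−0.19 to 0.36) and Cdkn1a (−0.42 to 0.03) ran across 0. Genes below 0 numbered 928 with DESeq2 and 343 to 643 when single libraries were left out (343 without replicate 4 and 347 without replicate 2 of WT day 1), against 539. With the stricter filter, which tests fewer low genes, falls numbered 2588 in WT and 2014 in KO. Genotype differences numbered 223 at day 0 and 4677 at day 1 with library weights, 1803 at day 0 with DESeq2, and 115 and 4246 with only the 8 libraries of the day. The cause was not tested, but the median SD was 0.659 and 0.672 (log2) in WT and KO at day 0 and 0.256 and 0.325 at day 1. Responses larger in KO numbered 91 with quantile normalization, 85 without the mean-variance trend and 89 to 173 when single libraries were left out (89 without replicate 2 of WT day 1). Responses smaller in KO numbered 252 to 397 (252 without replicate 4 of KO day 1). The cause of these moves was not tested. Replicate numbers did not pair most samples: same-numbered libraries deviated together with correlations of −0.028 to 0.282, 1 of 24 pairs above 0.1, and 5 of 16 libraries correlated best with their own number. The exception, at 0.282, was replicate 3 of WT day 1 and KO day 1. This replicate was also the highest of its group in both for Hspa1a (144 and 888) and Hspa1b (221 and 1312). A shared effect on replicate 3 at day 1 was not tested. With the replicate block, 1535 genes had an interaction, 1017 above 0 and 518 below. Depth limits low genes, such as those with 2 to 24 counts in a whole group (Myog, Nuf2, Cd320, Acta1 and Ckm), whose sizes rest on the pseudocount. DESeq2 gave no adjusted p for Mthfd2, Gins4, Gpx7 and Sod3.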
